A study of Mus musculus with 12 samples.

Results

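Toll-like receptors are the membrane-spanning sensors by which cells of innate immunity detect microbial lipids, proteins and nucleic acids. The family described here comprised 10 mouse receptors, Tlr1, Tlr2, Tlr3, Tlr4, Tlr5, Tlr6, Tlr7, Tlr8, Tlr9 and Tlr13, chosen by gene symbol and, where a gene has several array rows, selected on the brightest mean over all arrays. Of these, 9 had an array row annotated with that symbol alone, among 19938 genes measured in the same way, and Tlr5 was not analysed here. Each of the 9 receptors had 1 such row, so that brightness over the 12 arrays never had to decide between rows. The family had been proposed with results of the same comparison known, and the counts over its members are therefore given as a description.

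The arrays came from whole liver of male C57BL/6J mice, with an age of 8 weeks in the labels. One group had received an adenovirus carrying GFP through the tail vein and the other an adenovirus carrying ChREBP, a glucose-responsive transcription factor of lipogenesis and glycolysis encoded by Mlxipl. Both groups were fed and were studied 3 weeks after the injection, with 6 mice and 6 arrays in each, described in the labels as biological replicates. All mice had therefore received a virus, and no uninfected liver was analysed here. The injected dose was not legible in the labels, and neither the species nor the isoform of the injected ChREBP was given in the sources used here. With GFP, Mlxipl measured 9.32 ± 0.23, and with ChREBP it measured 10.89 ± 0.08 (SD, 6 arrays each), a 2.98-fold difference without overlap. The array could not tell the vector's transcript from that of the mouse. The livers carried hepatocyte transcripts throughout, with albumin (Alb) at 13.12 in GFP and 13.05 in ChREBP livers, although other hepatocyte markers were lower with ChREBP, as given beside the other cell types. All values are log2 expression values from RMA, the standard normalization of Affymetrix arrays, and a difference of 1 is a doubling. Pairwise correlations across all genes lay between 0.981 and 0.997 within a group and between 0.964 and 0.983 across groups.

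Toll-like receptors work at distinct places in a cell. Tlr1, Tlr2, Tlr4, Tlr5 and Tlr6 sit at the cell surface, where Tlr2 pairs with Tlr1 or Tlr6 to bind bacterial lipopeptides and Tlr4 binds lipopolysaccharide together with its partner Ly96. Tlr3, Tlr7, Tlr8, Tlr9 and Tlr13 sit in endosomes and lysosomes, where they meet double-stranded RNA, single-stranded RNA, RNA breakdown products, unmethylated CpG DNA and bacterial ribosomal RNA. Binding recruits the adaptors Myd88 or Ticam1, which lead to activation of NF-kB and interferon regulatory factors and to the transcription of cytokines and chemokines. In liver, the receptors are known above all from Kupffer cells and other macrophages, with some of them also in hepatocytes, endothelial cells and stellate cells.

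The promoter windows of the receptors give the sequence context of these measurements. RefSeq (assembly GRCm38.p6) held a window for 8 of the 10 named receptors, here the 250 bases before the annotated start of transcription. Tlr4 and Tlr7 had none, so no motif was searched for them. The windows shown are those of Tlr1 and Tlr13, whose differences between the groups were the largest of the family, and of Tlr6 and Tlr9, whose differences were the smallest. Each is written 5′ to 3′ on the strand of the gene, and capitals mark any match to 1 of 5 motifs.
Tlr1, start nearer the gene's 5′ side, chr5:64933559-64933808, minus strand: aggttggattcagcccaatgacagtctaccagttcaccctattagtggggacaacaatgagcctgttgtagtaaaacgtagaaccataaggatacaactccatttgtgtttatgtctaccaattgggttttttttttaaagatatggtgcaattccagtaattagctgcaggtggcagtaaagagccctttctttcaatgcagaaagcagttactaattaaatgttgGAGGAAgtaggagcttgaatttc
Tlr1, second annotated start, chr5:64932700-64932949, minus strand: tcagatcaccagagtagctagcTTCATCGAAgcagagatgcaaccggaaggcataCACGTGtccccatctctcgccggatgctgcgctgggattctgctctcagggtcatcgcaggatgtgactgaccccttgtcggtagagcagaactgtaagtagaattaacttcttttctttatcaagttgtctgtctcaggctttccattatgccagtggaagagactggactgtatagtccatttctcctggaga
Tlr13, chrX:106143025-106143274, plus strand: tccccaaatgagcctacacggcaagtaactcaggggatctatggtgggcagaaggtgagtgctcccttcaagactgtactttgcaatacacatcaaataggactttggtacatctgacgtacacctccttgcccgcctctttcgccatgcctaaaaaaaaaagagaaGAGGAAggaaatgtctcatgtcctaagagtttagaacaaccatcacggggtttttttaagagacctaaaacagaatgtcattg
Tlr6, 1 of its 2 annotated starts, chr5:64959167-64959416, minus strand: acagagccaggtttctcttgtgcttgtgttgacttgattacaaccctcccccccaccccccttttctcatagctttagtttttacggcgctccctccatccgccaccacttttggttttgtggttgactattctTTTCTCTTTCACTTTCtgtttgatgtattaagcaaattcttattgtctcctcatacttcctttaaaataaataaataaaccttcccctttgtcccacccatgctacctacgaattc
Tlr9, chr9:106222348-106222597, plus strand: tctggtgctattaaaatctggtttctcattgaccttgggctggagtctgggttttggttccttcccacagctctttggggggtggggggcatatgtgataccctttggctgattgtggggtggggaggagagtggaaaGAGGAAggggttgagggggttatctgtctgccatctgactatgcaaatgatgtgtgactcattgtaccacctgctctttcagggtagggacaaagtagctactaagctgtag

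The motifs were searched on both strands. The PU.1 core GAGGAA, named for a transcription factor of the myeloid lineage, occurred in the windows of Tlr1, Tlr8, Tlr9 and Tlr13, and in those of 25.9% of 27025 genes with a window. In Tlr13 it lay 83 bases before the start, in Tlr9 112 bases and in Tlr1 23 bases. The interferon-stimulated response element core GAAANNGAAA occurred in the Tlr6 window shown, in 2 overlapping matches 116 and 110 bases before that start. It occurred in 3.46% of all genes.
The NF-kB motif GGGNNNNNCC occurred in the windows of Tlr2, Tlr3, Tlr5 and Tlr6, and in 48.7% of all genes. In Tlr6 it lay 99 bases before the other annotated start, whose window is not shown and held no other match. The E-box CACGTG, the palindromic core bound by many basic helix-loop-helix factors, occurred in a window of Tlr1, 195 bases before its second start, and in 6.86% of all genes. The STAT motif TTCNNNGAA occurred in the windows of Tlr1 and Tlr8, and in 8.13% of all genes. The GAGGAA core stood both in Tlr13, with a large difference, and in Tlr9, with the smallest. A match of letters is not evidence that a site is used.

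Among the 9 measured receptors, 6 were higher in ChREBP livers by limma at an adjusted p under 0.05, and 0 were lower. The 6 were Tlr1, Tlr13, Tlr3, Tlr7, Tlr2 and Tlr4, in order of the size of the difference. The share called higher was 66.7%, beside 13.3% of all genes, and 27.0% of all genes were called in either direction. Of the 19938 genes, 2645 were called higher and 2730 lower, and the counts of later lists are to be read beside these. Of the 3 receptors that did not pass, Tlr8, Tlr6 and Tlr9, all had positive differences, and at an unadjusted p under 0.05 the counts were 9 higher and 0 lower. Over all genes, 38.6% of the differences were positive. The median difference over the 9 receptors was 0.36, against -0.04 over all genes. The groups did not overlap for 4 receptors, Tlr1, Tlr4, Tlr7 and Tlr13, that is 44.4% of those measured, where 8.33% of all genes were higher without overlap. A looser call, an unadjusted p under 0.05 together with a 1.5-fold or larger rise, was met by 2 receptors, Tlr1 and Tlr13, and by 4.1% of all genes. Tlr7 lay among the 25% of genes with the lowest mean, where array background is known to compress differences. Tlr6, Tlr8 and Tlr9 were also dim, at percentiles 26.1, 31 and 42.8 of the mean, and only 3 of the 9 receptors lay above the median gene.

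**Figure D1:**
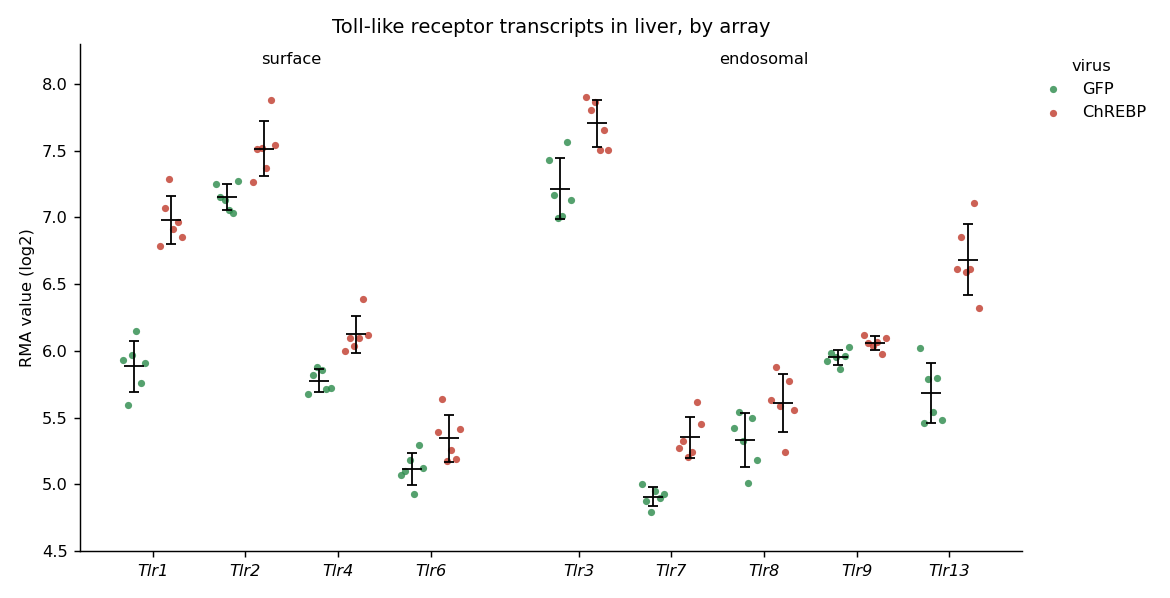
RMA values (log2, vertical axis) of the 9 receptors on each of the 6 GFP (green) and 6 ChREBP (red) arrays, with bars at the mean ± SD of each group. The Tlr1 and Tlr13 points of the groups stand clear of each other, those of Tlr4 and Tlr7 are separated by less, and those of the other receptors overlap; heights of different genes are not comparable.

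Of the surface receptors, Tlr1, the partner of Tlr2 for triacylated lipopeptides, showed the largest difference of the family. It measured between 5.59 and 6.15 in GFP livers, with a median of 5.92, and between 6.78 and 7.29 in ChREBP livers, with a median of 6.94. Every ChREBP array lay above every GFP array, by a gap wider than the range of either group. The means were 5.88 ± 0.19 and 6.98 ± 0.18 (SD, n = 6 each), and the difference of 1.10 (SE 0.10, 95% confidence interval 0.89 to 1.30) was 2.14-fold (limma, adjusted p = 1.64e-06). An exact two-sided permutation test over the 924 assignments of the arrays gave p = 0.00216, the smallest value that 6 against 6 can give.

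Tlr2 itself, which forms the common chain of both lipopeptide receptors, differed by less. Its values ran from 7.03 to 7.27 with a median of 7.14 in GFP livers and from 7.27 to 7.88 with a median of 7.52 in ChREBP livers. The groups touched, with 5 of 6 ChREBP arrays above the highest GFP array and the remaining one just below it. The difference was 0.36 (SE 0.09, 95% confidence interval 0.18 to 0.55), or 1.29-fold (limma, adjusted p = 0.00621). Tlr6, the other partner of Tlr2, for diacylated lipopeptides, measured 4.93 to 5.29 with a median of 5.11 in GFP livers and 5.17 to 5.64 with a median of 5.32 in ChREBP livers. Only 3 of 6 ChREBP arrays exceeded the highest GFP array. Its difference of 0.23 (SE 0.08, 95% confidence interval 0.05 to 0.40) did not pass by limma (adjusted p = 0.0526), and it did pass without ChREBP 3 (adjusted p = 0.0369), without ChREBP 5 (0.0371) or without GFP 5 (0.0337). Tlr1 and Tlr6 are neighbouring genes of high similarity, so that the division of probe signal between them is uncertain.

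Tlr4, the receptor of lipopolysaccharide, was higher in all ChREBP livers. It ran from 5.67 to 5.88 with a median of 5.77 in GFP livers and from 6.00 to 6.39 with a median of 6.10 in ChREBP livers. The groups did not overlap, and the highest array, ChREBP 5, stood apart from the other ChREBP arrays, which lay between 6.00 and 6.12. The difference was 0.35 (SE 0.07, 95% confidence interval 0.21 to 0.49), or 1.27-fold (limma, adjusted p = 0.00123). Leaving out ChREBP 5 brought it to 0.29, still past the threshold.

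Among the endosomal receptors, Tlr13, which detects bacterial ribosomal RNA, differed most. It measured between 5.46 and 6.02 with a median of 5.67 in GFP livers and between 6.32 and 7.11 with a median of 6.61 in ChREBP livers. The groups did not overlap, although each was spread more widely than those of Tlr1. The means were 5.68 ± 0.22 and 6.68 ± 0.27 (SD, n = 6 each), and the difference of 1.00 (SE 0.13, 95% confidence interval 0.73 to 1.27) was 2.00-fold (limma, adjusted p = 4.14e-05).

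Tlr3, the receptor of double-stranded RNA, which signals through Ticam1, ran from 6.997 to 7.56 with a median of 7.15 in GFP livers and from 7.50 to 7.90 with a median of 7.73 in ChREBP livers. The highest GFP array reached into the range of the ChREBP arrays, of which 4 of 6 lay above all GFP arrays. The difference was 0.49 (SE 0.11, 95% confidence interval 0.26 to 0.72), or 1.40-fold (limma, adjusted p = 0.0036). Tlr7, a receptor of single-stranded RNA, ran from 4.79 to 5.00 with a median of 4.91 in GFP livers and from 5.201 to 5.62 with a median of 5.30 in ChREBP livers. The groups did not overlap. Its difference was 0.44 (SE 0.07, 95% confidence interval 0.30 to 0.59), or 1.36-fold (limma, adjusted p = 0.000243).

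Tlr8, the neighbour and closest relative of Tlr7, with which it may share probe signal, measured 5.01 to 5.54 with a median of 5.37 in GFP livers and 5.24 to 5.88 with a median of 5.61 in ChREBP livers. In this gene 5 of 6 ChREBP arrays lay above all GFP arrays, and ChREBP 4, the lowest, lay among them. The difference of 0.28 (SE 0.11, 95% confidence interval 0.05 to 0.52) did not pass by limma (adjusted p = 0.0721), but it came to 0.36 and passed without ChREBP 4 (adjusted p = 0.016). Tlr9, the receptor of CpG DNA, had the smallest difference and the narrowest groups, from 5.86 to 6.03 with a median of 5.96 in GFP livers and from 5.98 to 6.12 with a median of 6.06 in ChREBP livers. Here too 5 of 6 ChREBP arrays exceeded the GFP arrays. The difference was 0.11 (SE 0.04, 95% confidence interval 0.02 to 0.20) and did not pass by limma (adjusted p = 0.0767). Its exact two-sided permutation p of 0.00649, not adjusted, was as low as that of Tlr3, and the upper end of its interval lay below the lower ends of those of Tlr1, Tlr13, Tlr3, Tlr7 and Tlr4.

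Tlr12, a further endosomal receptor of the mouse, which recognises profilin of protozoa and was not among the 10 named, ran from 6.34 to 6.76 in GFP livers and from 6.84 to 7.16 in ChREBP livers, without overlap. Its difference was 0.46 (SE 0.08), or 1.38-fold (limma, adjusted p = 0.00038). Tlr11 was not analysed here.

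**Figure D2:**
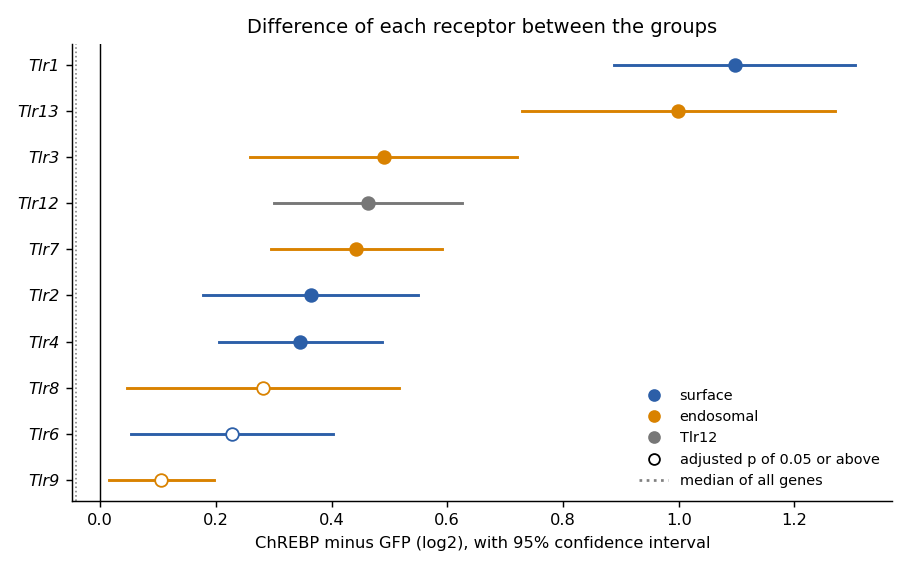
Difference of each receptor between the groups (ChREBP minus GFP, log2, horizontal axis) with its 95% confidence interval, for surface (blue) and endosomal (orange) receptors and for Tlr12 (grey). Open circles have an adjusted p of 0.05 or above, the dotted line is the median of all genes at -0.04, and both places in the cell hold 1 receptor near a difference of 1, namely Tlr1 and Tlr13, followed by smaller ones.

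The differences of surface and endosomal receptors lay within each other's range. Of 4 surface receptors 3 were higher, with a median difference of 0.36, and of 5 endosomal receptors 3 were higher, with a median of 0.44. Surface differences ranged from 0.23 to 1.10 and endosomal ones from 0.11 to 1.00, so that the span within either place exceeded the gap between their medians. Averaged over its receptors, a ChREBP array lay 0.38 to 0.62 above the GFP mean at the surface and 0.32 to 0.61 in the endosome. GFP arrays lay between -0.07 and 0.06 for the surface and between -0.14 and 0.14 for the endosome. Both averages were highest on ChREBP 5, with ChREBP 2 next for the surface at 0.60 and also next for the endosome at 0.57. No test of surface against endosome was made, since the receptors are few and had been chosen with their results known.

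The receptors did not move as a block within a group. Over the deviations of the 12 arrays from their group means, given as a description, Tlr2 ran with Tlr7 (Pearson r = 0.741) and with Tlr4 (0.61), and Tlr4 with Tlr7 (0.561). Tlr2, Tlr4 and Tlr7 each had their highest value on ChREBP 5 (7.88, 6.39 and 5.62). Their correlations were not computed without that array. Tlr4 and Tlr9 ran in opposite directions (-0.578), as did Tlr1 and Tlr9 (-0.577). Other pairs reached like values, such as Tlr3 with Tlr8 (0.583) and Tlr3 with Tlr4 (-0.538). The pairs given were picked from all pairs of the 9 receptors, and none was tested. The genes most like each called receptor by the same measure, among genes brighter than the median gene, were Proca1 (0.892) and Tigit (0.887) for Tlr1, Prkch (0.958) and Slc44a2 (0.953) for Tlr2, and Cetn4 (0.889) and Srgn (0.866) for Tlr4. For the endosomal receptors they were Ascc2 (0.933) and Chd9 (0.929) for Tlr3, Leprot (0.942) and Sec14l1 (0.92) for Tlr7, and Prelid3b (0.904) and Zswim6 (0.897) for Tlr13. Each was picked as the highest over all the brighter genes, from 12 arrays of shared preparation. Cetn4, Srgn and Sec14l1 shared with Tlr4 a high value on ChREBP 5, which was also the highest array of Tlr7. They were picked for their likeness to Tlr4 or Tlr7, so this sharing is not a separate result.

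Because whole liver was measured, fewer cells of a type and less RNA per cell cannot be told apart, and the same holds for more. Macrophage markers were higher together with the receptors. Of 12 markers of macrophages of any kind, 10 rose and 0 fell, with a median difference of 0.61, and the sum of their unlogged values lay between 4950 and 5680 in GFP livers and between 7640 and 9840 in ChREBP livers. They included Tyrobp, a signalling adaptor of myeloid cells (0.70), Mpeg1, a pore-forming protein of macrophages (0.87), C1qb of complement (0.59) and Aif1 (0.77). The exceptions were Mertk, which passed without ChREBP 4 (0.25, adjusted p = 0.0228), and Lyz2, which passed without ChREBP 5 (0.29, adjusted p = 0.0147). None of the markers is at 0 on these arrays, which give a background value to every row.

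Markers of resident Kupffer cells took another course. Of 7, 5 fell and 1 rose, with a median difference of -0.35, and their summed values overlapped, between 2870 and 3810 in GFP and between 2790 and 3550 in ChREBP livers. The brightest row weighs most in such a sum, here Vsig4, with means of 10.74 in GFP and 10.53 in ChREBP livers. Timd4, a receptor for dying cells, fell by 1.59, Cd163, the haemoglobin scavenger receptor, fell by 2.10, and Clec4f, a lectin of Kupffer cells, fell by 0.41. Vsig4 and Marco also passed in the lower direction (-0.21 and -0.35), but lost the call when any 1 of 8 or of 7 arrays was left out, with an adjusted p of up to 0.0702 and 0.096. Cd5l rose by 0.83, and Folr2 did not pass (-0.06).

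Most markers of recruited or lipid-associated macrophages were also higher. Of 7 measured, 5 rose and 0 fell, with a median of 1.08, and the summed values went from between 551 and 763 to between 2670 and 3380. The macrophage metalloelastase Mmp12 rose by 3.70, Cd9 by 2.32, Gpnmb by 2.18, the chemokine receptor Ccr2 by 1.08 and Itgax by 0.94. Trem2 (-0.10, adjusted p = 0.0876) did not pass by limma, although all its ChREBP arrays lay below the GFP arrays. Nor did Chil3 (1.00, adjusted p = 0.114), whose difference was 0.53 without ChREBP 5 (adjusted p = 0.0765). Of 10 markers of T and NK cells 7 rose, with a median of 0.36, and their sums lay between 443 and 610 in GFP and between 743 and 1310 in ChREBP livers. Those with the smallest p were the granzyme Gzma (1.85), the CD3 chains Cd3g (1.07) and Cd3e (0.38), and Nkg7 (0.99).

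Hepatocyte markers were lower in the same livers. Of 8, 5 fell and 0 rose, or 1 at an unadjusted p under 0.05, with a median difference of -0.18, and their summed values lay between 54400 and 58100 in GFP and between 48200 and 51800 in ChREBP livers, without overlap. The urea cycle enzyme Cps1 fell by 0.43, the transcription factor Hnf4a by 0.33, apolipoprotein A-I (Apoa1) by 0.27 and fibrinogen (Fgb) by 0.25. Transthyretin (Ttr) fell by 0.11, a call lost without any 1 of 11 arrays (adjusted p of up to 0.0924). Of 8 markers of sinusoidal endothelial cells 1 rose, the hyaluronan receptor Lyve1 (0.57, or 0.43 without ChREBP 5), and 0 fell, or 1 at an unadjusted p under 0.05, with a median of -0.14 and overlapping sums of 2660 to 2980 in GFP and 2260 to 3870 in ChREBP livers. Of 8 stellate cell markers 1 rose and 1 fell, with a median of 0.12 and overlapping sums of 3000 to 4180 and 3210 to 4200. They were Reln, which fell by 0.36, and Pdgfrb, higher by 0.25, a call lost without any 1 of 7 arrays (adjusted p of up to 0.0774).

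Markers of plasmacytoid dendritic cells, neutrophils and B cells gave no calls, where 27.0% of all genes were called. By limma, 0 of 4 markers of plasmacytoid dendritic cells, which carry Tlr7 and Tlr9, passed, and 0 of 9 neutrophil markers and 0 of 6 markers of B and plasma cells did. At an unadjusted p under 0.05 the counts were 0, 2 (both higher) and 1 (lower). Of 6 markers of conventional dendritic cells, 0 rose and 1 fell, with a median of 0.04. Most markers of these 4 cell types were dimmer than the median gene, so that a missing call says little about the cells. Pancreatic acinar transcripts were abundant on ChREBP 4 and ChREBP 5, with summed values of 32500 and 28700, against 341 to 419 in GFP livers. The sums on ChREBP 2 and ChREBP 6 were also above the GFP range, at 1390 and 642. Without ChREBP 4 and ChREBP 5, but with ChREBP 2 and ChREBP 6 kept, the 6 receptors all still passed, together with Tlr6 and Tlr8. The part of any of these cells in the differences of the receptors was not tested.

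Set against the mean of the 12 macrophage markers on the same array, the receptors divided into those that gained more and those that gained less. Tlr1 gained 0.48 more than that mean and Tlr13 gained 0.39 more, with overlap between the groups in both. Tlr6 fell behind it by -0.39 and Tlr9 by -0.51, on all ChREBP arrays below all GFP arrays. The other 5 receptors lay between, at -0.12 for Tlr3, -0.17 for Tlr7, -0.25 for Tlr2, -0.27 for Tlr4 and -0.33 for Tlr8, all with overlap. These are differences of differences, given without a test. The marker mean itself lay 0.548 to 0.785 above its GFP mean on the ChREBP arrays. A smaller rise, or none, therefore places any gene behind it. The share of all genes lying wholly below in this way was not computed. The differences of Tlr6 and Tlr9 themselves were positive.

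**Figure D3:**
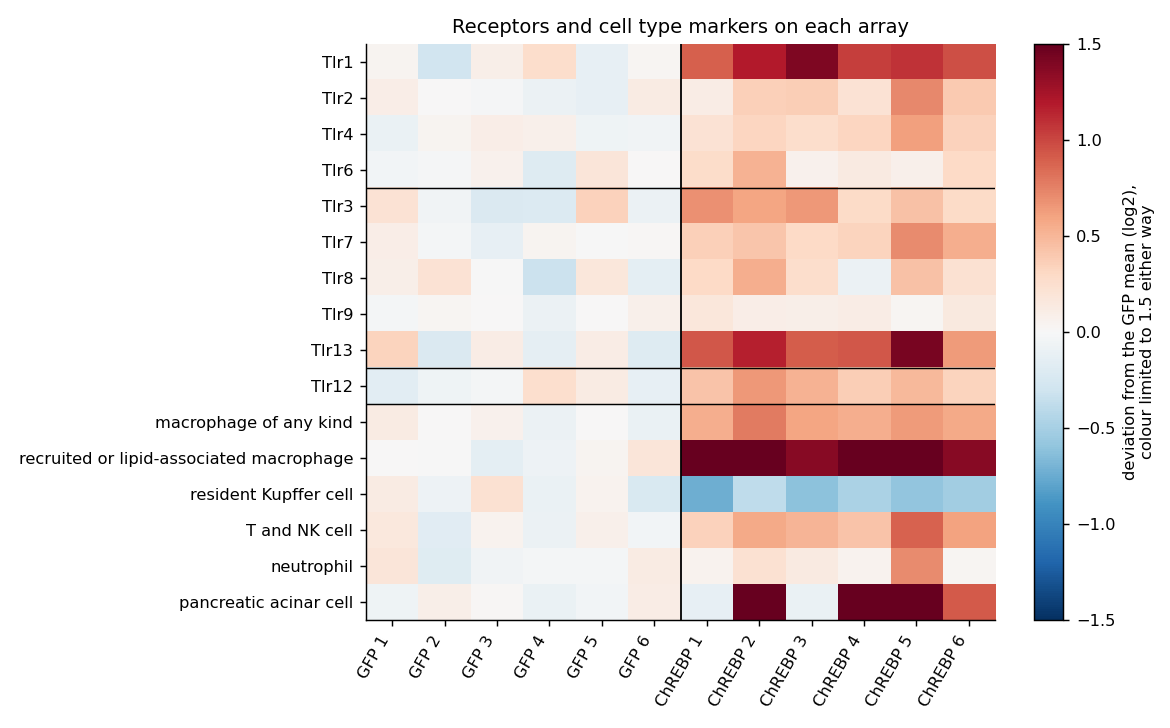
Deviation from the GFP mean (log2, colour, limited to 1.5 either way) of each receptor and of the mean of each marker list on the 12 arrays. Tlr1, Tlr13 and the markers of recruited or lipid-associated macrophages are red on all 6 ChREBP arrays, resident Kupffer cell markers are blue there, and pancreatic acinar transcripts are strongly red on ChREBP 2, ChREBP 4 and ChREBP 5.

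The co-receptors that hand ligands to the surface receptors were higher for the most part. Of 7, 4 rose, 1 fell and 2 did not pass, with a median difference of 0.89. Cd36, a scavenger receptor and fatty acid transporter that also serves Tlr2 with Tlr6 and is made by hepatocytes, went from 9.49 ± 0.28 with GFP to 11.48 ± 0.14 with ChREBP (SD, 6 arrays each) and rose by 1.99. Cd14, which passes lipopolysaccharide and lipopeptides to Tlr4 and Tlr2, went from 5.77 ± 0.20 to 7.22 ± 0.25 and rose by 1.45. Cd180, a relative of Tlr4, and its partner Ly86 rose by 0.92 and 0.89. In these 4 genes the groups did not overlap.
The partner that Tlr4 itself needs moved the other way. Ly96 (MD-2) ran from 7.78 to 8.14 in GFP livers and from 7.29 to 7.82 in ChREBP livers, with overlap, and fell by 0.36 (SE 0.10; limma, adjusted p = 0.0121). Tril (-0.09) and the circulating lipopolysaccharide-binding protein Lbp (-0.03) did not pass.

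Genes that carry the receptors to their places divided evenly. Of 8 measured, 2 rose, 2 fell and 4 did not pass, with a median of 0.02. Unc93b1, the chaperone that brings the endosomal receptors out of the endoplasmic reticulum, rose by 0.43 (limma, adjusted p = 0.000449), without overlap between the groups. Slc15a3, a lysosomal transporter of histidine and of bacterial cell wall peptides, rose by 0.79. Hsp90b1 (gp96), the folding chaperone required by most members of the family, fell by 0.24, and its cofactor Cnpy3 fell by 0.23, the latter with an adjusted p of 0.0533 without ChREBP 4 and ChREBP 5.
Proteases and nucleases of the endolysosome, which cleave the endosomal receptors or trim their nucleic acid ligands, were higher in 7 of 9 and lower in 0, or in 1 at an unadjusted p under 0.05, with a median of 0.45. The reductase Ifi30 rose by 1.16, cathepsin S (Ctss) by 0.85, the nuclease Pld4 by 0.67 and legumain (Lgmn) by 0.64.

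Downstream of the receptors come the adaptors and the kinases and ubiquitin ligases. Their counts are to be read against the 13.3% of all genes called higher and the 2730 of 19938 called lower. Of 6 adaptors 1 rose, Pik3ap1 (BCAP, 0.32; limma, adjusted p = 0.0034), with a median of 0.03 over the list. Myd88 (-0.03), Ticam1 (0.14), Ticam2 (0.09) and Sarm1 (-0.14) did not pass. Nor did Tirap (-0.32; limma, adjusted p = 0.055), the sorting adaptor of Tlr2 and Tlr4, although it passed in the lower direction without ChREBP 1 (0.0414), GFP 2 (0.025) or GFP 4 (0.0288).
Of 15 kinases and ubiquitin ligases 1 rose, 4 fell and 10 did not pass, with a median of -0.04. The ubiquitin ligase Peli2 fell by 0.31 and the NF-kB-activating kinase Ikbkb by 0.29. Tab2 fell by 0.22, as did Traf6, the ubiquitin ligase below Myd88, which lost its call without ChREBP 3 (adjusted p = 0.0558), ChREBP 6 (0.058) or GFP 6 (0.055). Ube2v1 was higher by 0.24 in its brightest row but measured -0.016 in its dimmest (adjusted p = 0.945), and lost its call without ChREBP 1, ChREBP 2, ChREBP 3, ChREBP 4 or GFP 5 (adjusted p of 0.0518 to 0.0698).

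Of 11 transcription factors of the pathway, 4 rose, 1 fell and 6 did not pass, with a median of 0.18. The largest were Irf7 (0.98), an interferon-induced factor used by Tlr7 and Tlr9, and Irf1 (0.57), itself induced by interferon. Irf1 had 2 rows, and its dimmer row differed by 0.15 and did not pass by limma (adjusted p = 0.216). The smaller differences of Irf8 (0.21), Rela (0.18) and Irf5 (-0.23) passed only narrowly. Irf8 lost its call without ChREBP 6 (adjusted p = 0.0518), and Rela and Irf5 each did so without any 1 of 8 arrays (adjusted p of up to 0.0756 and 0.0646).
Inhibitors of the pathway were higher in 4 of 14 and lower in 0, or in 2 at an unadjusted p under 0.05, with a median of -0.01. They were Trim30a (0.82), an interferon-induced protein, the ubiquitin-editing enzyme Tnfaip3 (A20, 0.48), its partner Tnip1 (0.38) and Atf3 (0.65), a repressor also induced by stress.

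Target genes of the receptors split into those that were higher and those that did not pass. Of 25 listed, 11 rose and 0 fell, with a median of 0.15, and 2 were lower at an unadjusted p under 0.05. The other 14 did not pass, most of the listed interleukin genes among them. In 9 of the 25 the groups were higher without overlap, beside 8.33% of all genes. The risen genes with the smallest p were chemokines, Ccl5 (1.89), Cxcl10 (1.68), Cxcl2 (1.21) and Ccl2 (1.07), each without overlap between the groups. They attract T cells, neutrophils or monocytes and have inducers other than these receptors as well. Proteins that can serve as ligands released by damaged tissue were measured for 9 genes, of which 2 rose and 2 fell. The matrix proteins tenascin C (Tnc, 0.53) and biglycan (Bgn, 0.35) rose, and fibronectin (Fn1) fell by 0.31. The chaperone Hspd1 fell by 0.12, a call lost without any 1 of 10 arrays (adjusted p of up to 0.0822).
Over all 104 pathway genes measured of 112 listed, 36 rose and 10 fell, with a median of 0.09. Among all 19938 genes, 13.3% were called higher and 2730 were called lower.

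**Figure D4:**
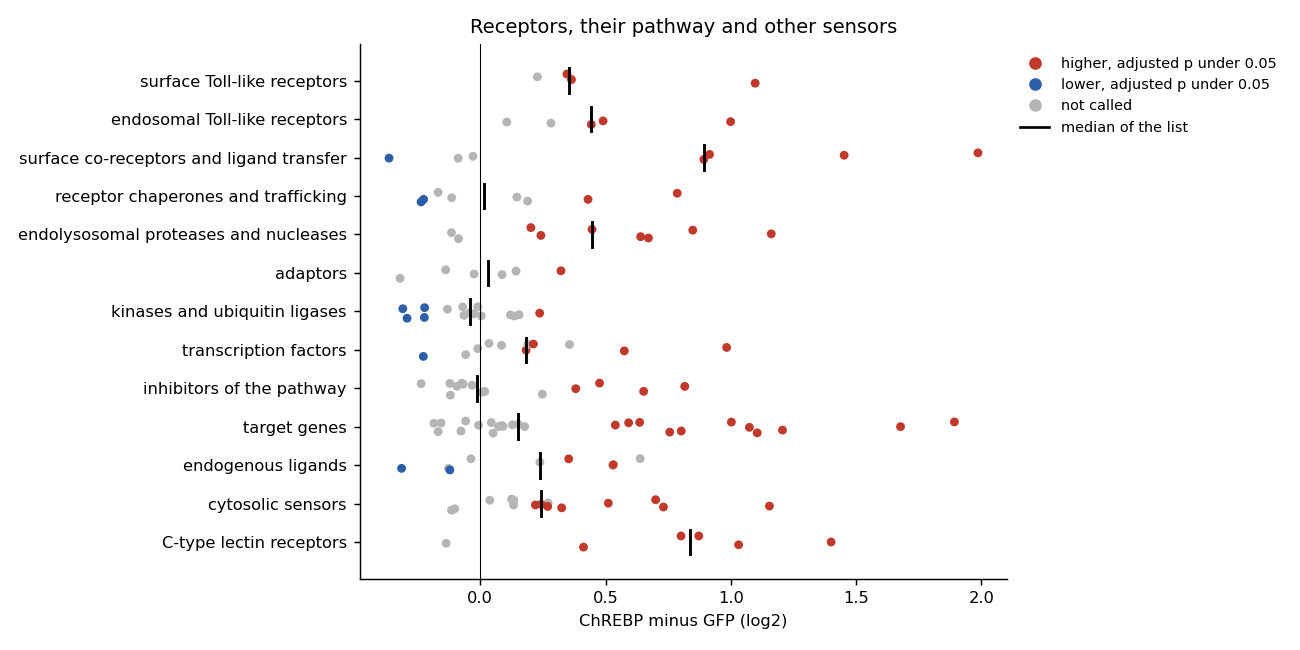
Difference of each gene (ChREBP minus GFP, log2, horizontal axis) in the lists of receptors, their pathway and other sensors, with red for higher and blue for lower at an adjusted p under 0.05, grey for genes not called and a black bar at the median of each list. All receptors lie right of 0, as do most co-receptors, while adaptors, kinases and ubiquitin ligases cluster around 0.

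Sensors of other families give a measure of how far the differences were shared. Of 15 cytosolic sensors of nucleic acids and bacterial products with their adaptors, 8 rose and 0 fell, with a median of 0.24. Zbp1, a sensor of Z-form nucleic acid, rose by 1.15, the inflammatory caspase Casp1 by 0.73, the DNA sensor Aim2 by 0.70 and Sting1, the adaptor of cytosolic DNA sensing, by 0.51. Of 6 C-type lectin receptors, which bind sugars of microbes and dying cells on myeloid cells, 5 rose and 0 fell, with a median of 0.84. Clec7a (dectin-1) rose by 1.40, Clec12a by 1.03, Clec4e (mincle) by 0.87 and Clec4n (dectin-2) by 0.80. Clec4d rose by 0.41, a call lost without any 1 of 6 arrays (adjusted p of up to 0.0695), and the mannose receptor Mrc1 did not pass (-0.14). With 6 of 9 receptors called, the median of 0.36 for the Toll-like receptors lay between the medians of these lists. At an unadjusted p under 0.05, 0 of the cytosolic sensors and C-type lectin receptors were lower, as were 0 of the markers of macrophages of any kind and of T and NK cells and 1 of those of recruited macrophages, Trem2. No difference between the families was tested.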

How the data were processed

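The members and gene lists were chosen with earlier results of these data known. Expression is in log2 units as deposited by the authors. RMA and Partek appear in the submitters' processing notes, with no version. Total RNA had been amplified and labelled with Nugen reagents for Affymetrix mouse gene arrays. Array medians lay between 5.956 and 6.049. Without detection calls or scan dates, neither absence of a gene nor an array batch could be tested. The number of arrays limits the precision.

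Of 35556 rows, 21789 carried 1 gene symbol in the platform annotation, 1621 several, and 12146 were not listed. Entrez identifiers matched 21698 single-symbol rows to RefSeq (GRCm38.p6). The brightest row stood for each of 19938 genes. Every difference is ChREBP minus GFP by limma 3.58.1 in R 4.3.3 (lmFit, eBayes, two-sided, no covariates), adjusted by Benjamini-Hochberg over all genes, and the script was tested on simulated data. Genes counted as risen or fallen at an adjusted p under 0.05. Named genes were all members with Tlr12, up to 4 genes per list and direction by the smallest p, genes completing a count of 5 or fewer, Mlxipl and liver genes, and the 2 genes most like each called member. Alternatives were other normalizations, moderations, rows per gene and filters, a replicate block, and leaving out arrays.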

Additional observations from a re-analysis of the deposited data

Results flagged for a closer look

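In 17 of 218 groups of 6 arrays, over the 109 genes named or tested beside them, the highest or lowest array stood apart from the other 5 by a gap past Dixon's 95% critical value. Chance flags about 1 in 20 groups. This rate does not apply to genes picked for their likeness to a receptor, such as Cetn4, Srgn and Sec14l1.

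Among the receptors this held for Tlr4, with ChREBP 5 at 6.39 and the other ChREBP arrays between 6.00 and 6.12. On the same array, the high values were those of Lyz2 (11.56, others 9.87 to 10.26), Chil3 (7.93, others 4.67 to 5.43), Cetn4 (8.36, others 6.81 to 7.38), Srgn (9.47, others 8.65 to 8.89), Lyve1 (9.19, others 8.09 to 8.50) and Sec14l1 (7.15, others 6.45 to 6.69).
On ChREBP 4, Irf5 was high at 7.06 (others 6.84 to 6.89) and Aim2 low at 7.27 (others 7.69 to 7.92).
Among GFP arrays, Ube2v1 was low on GFP 2 at 9.89 (others 10.30 to 10.403), as were Cd3g at 5.64 (others 6.35 to 6.60) and Hnf4a at 9.95 (others 10.15 to 10.24). On GFP 1, Sec14l1 was high at 6.68 (others 6.30 to 6.43) and Reln at 7.98 (others 7.60 to 7.71). Cxcl2 was high on GFP 5 at 5.04 (others 4.64 to 4.76). On GFP 6, Vsig4 was low at 10.51 (others 10.72 to 10.83) and Ccr2 high at 5.84 (others 5.38 to 5.54).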

How the results depend on the processing

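Under 25 alternatives, the 6 called receptors kept their direction and call, except that Tlr7 was not tested without the 25% dimmest genes. Their differences ranged from 1.04 to 1.15 for Tlr1, 0.91 to 1.07 for Tlr13, 0.43 to 0.56 for Tlr3, 0.39 to 0.47 for Tlr7, 0.29 to 0.41 for Tlr2 and 0.29 to 0.37 for Tlr4. No receptor was called lower in any of them. Tlr6 passed in 8 alternatives, Tlr8 in 4 and Tlr9 in 2. All 9 receptors were called with array weights, 8 without ChREBP 4 and ChREBP 5, and 6 to 7 with single arrays left out. The surface median was 0.30 without ChREBP 4 and ChREBP 5 and 0.292 to 0.392 with single arrays left out, and the endosomal median was 0.39 to 0.465. Between 4656 and 5632 genes were then called.

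Centring arrays on the median of the genes tested, added after seeing the data, gave a surface median of 0.30 and turned the split of 2645 genes higher and 2730 lower into 2194 and 5595. It left 33 pathway genes higher and 22 lower. Ube2v1 came to -0.016 with the dimmest row of a gene. In these reversed or moved values the cause was not tested. Of 109 genes, 84 kept their side of the threshold and direction throughout.

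With the replicate number as a block, 7 receptors were called, Tlr8 being added (adjusted p = 0.00286), and 4439 genes in all. Deviations of same-numbered arrays correlated between -0.061 and 0.254, highest for number 6, the only one whose GFP array lay closest to the ChREBP array of its number. The numbers were therefore not taken as pairs.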
